A study of Mus musculus with 52 samples.

Results

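The B cell identity genes examined here were Ms4a1, Cd79a, Cd79b, Pax5, Blk, Cd22, Fcrla, Bank1 and Spib, 9 genes of the 27525 in the deposited table, chosen by gene symbol. In build GRCm38 the genes lie at chr19:11249675-11266241 (Ms4a1), chr7:24897381-24902197 (Cd79a), chr11:106311341-106314762 (Cd79b), chr4:44524757-44710487 (Pax5), chr14:63372836-63417037 (Blk), chr7:30865402-30880342 (Cd22), chr1:170917576-170927583 (Fcrla), chr3:136053363-136326066 (Bank1) and chr7:44525993-44532071 (Spib), Cd79a on the plus strand and the other 8 on the minus strand. All 9 were found once in the table, and all 9 passed the filter on low values, a mean of at least 1 normalized count over the 32 tumors, as did 23486 genes in all. A B cell recognizes antigen through a membrane immunoglobulin held in a complex with the products of Cd79a and Cd79b, whose cytoplasmic tails pass the signal to kinases such as the Src family member encoded by Blk. Adaptor and co-receptor proteins set the strength of that signal. Bank1 encodes a scaffold for signaling enzymes, Cd22 an inhibitory lectin of the B cell surface, Ms4a1 the surface protein CD20 and Fcrla an Fc receptor-like protein kept inside B cells. Pax5 is the transcription factor that holds cells to the B lineage, and Spib encodes an Ets family factor of mature B cells that plasmacytoid dendritic cells also use. In tumors these transcripts are read as a measure of infiltrating B cells and of the tertiary lymphoid structures in which B cells gather.

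Bulk poly(A) RNA-seq was performed on individual subcutaneous KPC tumors, each sequenced as its own library. KPC tumors grew from KxPxCx cells, a pancreatic tumor line from an engineered mouse that carried, among its alleles, Trp53 LSL.R172H/+ and the transgene Pdx1-Cre, injected into syngeneic male C57BL/6NHsd mice of 8 to 10 weeks, so that every tumor came from the same line and carried the same alleles, and Cre was driven by the pancreatic Pdx1 promoter in the mouse of origin. The untreated control, ADU-S100, anti-LTbR and combination groups held 8 tumors each. ADU-S100 is a STING agonist and was injected once into the tumor at 2 µg, anti-LTbR is the agonist antibody 4H8 to the lymphotoxin-β receptor and was given into the peritoneum at 100 µg on 4 occasions, and the combination group received both. All tumors were taken on day 14. The recovered depth was 12762453 to 15591986 reads per tumor, with group medians from 14831778 to 15222570.

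Krt8 and Krt18, keratins of epithelial cells, were abundant in all 32 tumors (Krt8 from 3372 to 12368 normalized counts), and Ptprc, the pan-leukocyte phosphatase CD45, ranged from 1310 to 2952. Combination tumors 7 and 8 stood apart from the other 30. Their summed erythroid precursor genes (Car1, Klf1, Epb42, Alas2 and Kel) reached 1920 and 1473 normalized counts against 139 to 596 elsewhere, and their summed granulocyte precursor genes (Mpo, Elane, Prtn3 and Ctsg) 2778 and 2028 against 210.1 to 938. These lists were written after the values were seen. Tumor 7 also had the highest value of its group for 7 of the 9 B cell identity genes. The calls on the combination group are therefore given with and without both tumors, and the part of these other cells in the results was not tested.

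The promoters of 4 of the genes are shown, chosen by the calls of these genes in the tumors. Differences between the genes, and any relation of motifs to the calls, were not tested. Cd79a had the largest log2 fold change between combination and control tumors, and Cd22 was the member that limma called with anti-LTbR alone. Spib lost its limma call without combination tumors 7 and 8. Fcrla did not pass by limma, whereas edgeR and DESeq2 on recovered reads passed it. The sequences are the 250 bases before the RefSeq start (build GRCm38.p6), written 5′ to 3′ on the strand of the gene. Capitals mark matches to the motifs searched on both strands. For Cd22 and Cd79a the RefSeq start differs from the gene bounds given above. The Cd22 stretch lies inside those bounds, and the Cd79a stretch crosses the start of its gene.
Cd79a, chr7:24897247-24897496, plus strand: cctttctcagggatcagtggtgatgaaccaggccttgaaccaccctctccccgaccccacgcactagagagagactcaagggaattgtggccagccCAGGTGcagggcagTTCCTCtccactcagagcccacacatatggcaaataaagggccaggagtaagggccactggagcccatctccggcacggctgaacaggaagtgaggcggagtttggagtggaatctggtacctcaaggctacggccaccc
Fcrla, chr1:170927584-170927833, minus strand: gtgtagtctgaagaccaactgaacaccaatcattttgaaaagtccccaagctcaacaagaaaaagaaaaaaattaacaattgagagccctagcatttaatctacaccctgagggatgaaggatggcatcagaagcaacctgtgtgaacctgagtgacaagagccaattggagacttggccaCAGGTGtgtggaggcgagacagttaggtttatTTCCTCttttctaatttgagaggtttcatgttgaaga
Cd22, chr7:30879029-30879278, minus strand: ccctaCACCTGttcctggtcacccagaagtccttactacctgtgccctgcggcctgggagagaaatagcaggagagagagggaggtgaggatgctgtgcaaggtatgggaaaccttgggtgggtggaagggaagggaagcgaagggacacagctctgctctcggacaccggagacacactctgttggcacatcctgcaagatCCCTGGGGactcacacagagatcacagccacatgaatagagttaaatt
Spib, chr7:44532072-44532321, minus strand: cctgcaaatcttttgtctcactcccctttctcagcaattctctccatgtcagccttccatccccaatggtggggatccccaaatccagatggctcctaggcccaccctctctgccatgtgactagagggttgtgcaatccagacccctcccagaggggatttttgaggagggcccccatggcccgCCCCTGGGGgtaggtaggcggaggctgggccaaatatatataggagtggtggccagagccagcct

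RefSeq promoters were matched for 6 of the 9 genes, Cd79a, Pax5, Cd22, Fcrla, Bank1 and Spib. The PU box (GAGGAA, the core bound by Ets factors such as the product of Spib) was present in 2 of the 6, Cd79a and Fcrla, against 23.25% of 32851 promoters of the same length. The E box (CAGGTG or CAGCTG) was present in 4 of the 6, Cd79a, Cd22, Fcrla and Bank1, against 27.74%. The EBF1 site (CCCNNGGG) was present in 3 of the 6, Cd22, Bank1 and Spib, against 11.82%, and Spib held it as a pair of matches that overlap in a run of 9 bases. The octamer (ATTTGCAT) was present in 0 of the 6 against 1.601%. Cd79a and Fcrla thus shared the same motif letters, a PU box and an E box, and Pax5 held no match to any of the 4 motifs.

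On a scale per kilobase of exon, the receptor chains were the most abundant of the 9 genes in untreated tumors. Cd79b had a median of 37.4 normalized counts per kilobase and Cd79a of 20.4, followed by Cd22 at 16.9, Fcrla at 9.06, Spib at 7.67, Blk at 4.17, Bank1 at 3.56, Ms4a1 at 2.70 and Pax5 at 1.63. Ranges of neighbors in this order overlapped, for example 19.6 to 57.8 for Cd79b and 11.03 to 66.1 for Cd79a. Summed over the 9 genes on the same scale, untreated tumors ranged from 69.4 to 195.8, ADU-S100 tumors from 51.99 to 161, anti-LTbR tumors from 92.0 to 404 and combination tumors from 145 to 529. The median was higher in each group of that order, from 100.1 through 117 and 203 to 284, and the ranges of all 4 groups overlapped.

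**Figure D1:**
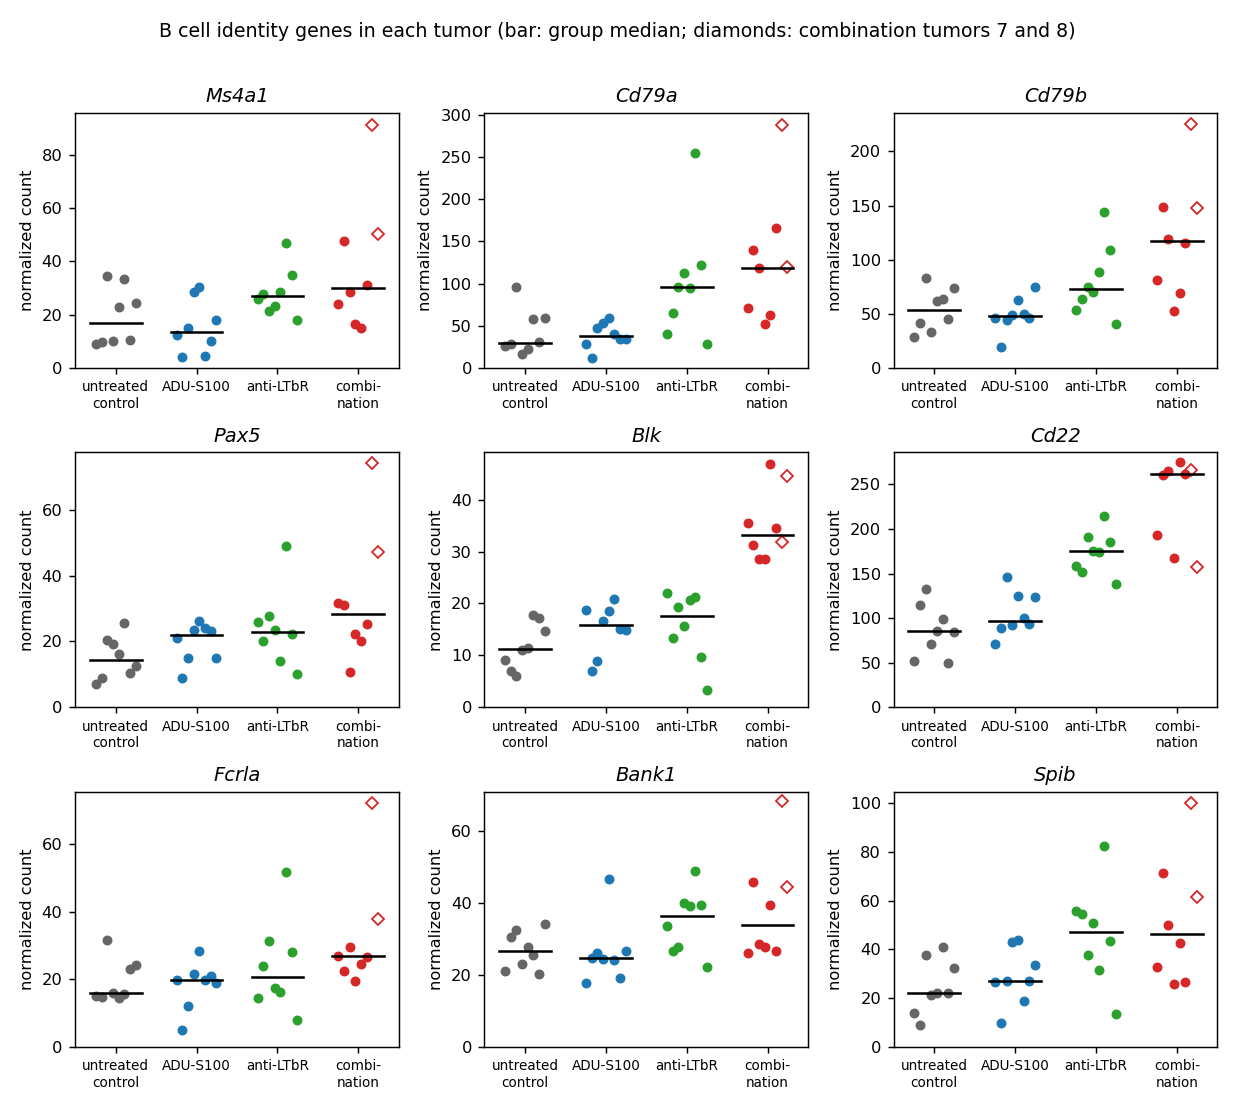
Normalized count of each of the 9 genes (vertical axes, linear, from 0) in each of the 32 tumors, by treatment group (horizontal axes). Points are tumors, horizontal bars are group medians, and open diamonds are combination tumors 7 and 8. Blk separates the combination group from all others, Cd22 is raised in both groups given anti-LTbR, and the other genes overlap between groups, with combination tumor 7 highest for 7 of the 9.

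Most of the B cell identity genes were higher after combination treatment. In combination tumors against untreated control, 6 of the 9 genes rose by limma at an adjusted p under 0.05 (Cd79a, Cd79b, Blk, Cd22, Spib and Pax5) and 0 fell. Ms4a1, Fcrla and Bank1 did not pass by limma, whereas DESeq2 on recovered reads called 8 of the 9, all but Bank1. Of all 23486 genes, 15.7% rose by the same limma rule. With the 2-fold limit in addition, 5 of the 9 remained, Pax5 being the one lost, against 5.53% of all genes. The median log2 fold change was 1.01 over the 9 genes and 0.02 over all genes tested. Without combination tumors 7 and 8 the same test called 4 of the 9 (Cd79a, Cd79b, Blk and Cd22), against 14.3% of all genes. In bulk tissue, more cells of a type and more RNA per cell cannot be told apart.

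The antigen receptor chains rose together. In untreated tumors Cd79a had a lowest value of 16.1, a median of 29.7 and a highest of 96.3 normalized counts, and in combination tumors 52.4, 119 and 289. Cd79b had 28.1, 53.5 and 82.7 in untreated tumors and 52.5, 117 and 225 in combination tumors. For both genes 5 of 8 combination tumors lay above every untreated tumor, and the other 3 lay within the untreated range. Cd79a increased 3.02-fold, a log2 fold change of 1.60 ± 0.38 (SE, 8 tumors per group, adjusted p = 0.00366), and Cd79b 2.14-fold, 1.10 ± 0.28 (adjusted p = 0.00662). Without tumors 7 and 8 the log2 fold changes were 1.35 (adjusted p = 0.0148) and 0.85 (adjusted p = 0.0292). The ratio of Cd79a to Cd79b per kilobase had a median of 0.734 in untreated tumors and 0.953 in combination tumors, with overlapping ranges of 0.352 to 1.14 and 0.792 to 1.41.

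Blk was the member with the sharpest separation. Its values ran from 6.11 to 17.8 in untreated tumors (median 11.3), from 6.91 to 20.8 with ADU-S100 (median 15.9), from 3.34 to 22.1 with anti-LTbR (median 17.5) and from 28.6 to 46.9 with the combination (median 33.2). Every combination tumor lay above every tumor of the other 3 groups, which overlapped among themselves. Genes for which every combination tumor lay above every untreated tumor made up 3.46% of all genes tested. Blk rose 2.96-fold over control (log2 fold change 1.56 ± 0.22, SE, adjusted p = 6.91e-05), and the value was 1.53 without combination tumors 7 and 8 (adjusted p = 0.000431). Blk is also known from γδ T cells, and a list of their genes written after the values were seen (Trdc, Scart1, Scart2, Trdv4 and Il17a) summed to 126 to 413 in combination tumors, 31.6 to 139 in untreated tumors and 34.4 to 203 with anti-LTbR. Il17a had a median of 0 in every group. The part of γδ T cells in the Blk result was not tested.

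Cd22 rose in both groups that received anti-LTbR. Untreated tumors had 49.7 to 132 normalized counts (median 85.3), ADU-S100 tumors 71.0 to 146 (median 96.6), anti-LTbR tumors 138 to 215 (median 175) and combination tumors 157 to 275 (median 261). Neither anti-LTbR nor combination tumors overlapped the untreated group, whereas ADU-S100 tumors did. Every combination tumor lay above every untreated tumor for 3.46% of all genes tested, and every anti-LTbR tumor for 0.588%. Of the 8 combination tumors, 5 lay between 261 and 275, and tumors 1, 4 and 8 lay between 157 and 193, within the anti-LTbR range. Cd22 rose 2.73-fold in combination tumors (log2 fold change 1.45 ± 0.20, SE, adjusted p = 5.88e-05; 1.497 without tumors 7 and 8, adjusted p = 0.000179). Cd22 overlaps the gene Gm29439 on the opposite strand, and whether the deposited counting used strand is not given in the sources used here.

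Ms4a1, Fcrla and Bank1 had higher means in combination tumors and did not pass by limma. On recovered reads DESeq2 passed Ms4a1 (adjusted p = 0.0433) and Fcrla (adjusted p = 0.0309), and edgeR (TMM) passed Fcrla (adjusted p = 0.0419) and not Ms4a1 (adjusted p = 0.0692). Untreated tumors held 9.02 to 34.6 normalized counts of Ms4a1 (median 16.7) against 14.9 to 91.5 in the combination group (median 29.9), and its log2 fold change was 0.90 ± 0.38 (adjusted p = 0.0822). Fcrla ranged from 14.3 to 31.6 (median 15.8) and from 19.4 to 72.2 (median 26.8), with 0.65 ± 0.25 (adjusted p = 0.0521). Bank1 ranged from 20.1 to 34.1 (median 26.6) and from 26.0 to 68.4 (median 34.0), with 0.45 ± 0.20 (adjusted p = 0.103). Combination tumor 7 held the highest value of all 32 tumors for each of the 3 genes, and without tumors 7 and 8 the log2 fold changes were 0.56, 0.39 and 0.25 (adjusted p = 0.275, 0.173 and 0.336). Leaving out single tumors moved the other way in some cases, since Fcrla passed by limma without control tumor 3 or 8 or combination tumor 2 or 4 (adjusted p from 0.0251 to 0.0480), and Ms4a1 without control tumor 3 or combination tumor 5 (adjusted p = 0.0482 and 0.0474). The 95% interval of the full comparison reached 1.72 for Ms4a1, 1.18 for Fcrla and 0.87 for Bank1, so that an increase of 1 log2 unit lay inside it for Ms4a1 and Fcrla and outside it for Bank1. Fcrla overlaps Gm2962 on the same strand, so its counts are uncertain by the reads that the overlap could assign to either gene.

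The transcription factors Pax5 and Spib passed the test with less margin. Pax5 had a lowest, median and highest value of 7.01, 14.4 and 25.6 in untreated tumors and of 10.8, 28.3 and 74.2 in combination tumors (log2 fold change 0.99 ± 0.34, SE, adjusted p = 0.0319). Spib had 8.86, 21.99 and 41.1 in untreated tumors and 25.8, 46.4 and 100.2 in combination tumors (1.01 ± 0.33, adjusted p = 0.0241). Of the 8 combination tumors, 4 lay above every untreated tumor for Pax5 and 5 for Spib. Without tumors 7 and 8 neither gene passed (0.65, adjusted p = 0.128 for Pax5 and 0.76, adjusted p = 0.0953 for Spib). Leaving out single tumors ended the Pax5 call in 7 of 16 cases (control tumors 1, 2, 7 and 8 and combination tumors 1, 7 and 8, adjusted p from 0.0502 to 0.067) and the Spib call in 2 (control tumor 1 and combination tumor 7, adjusted p = 0.0507 and 0.0501). Spib is shared with plasmacytoid dendritic cells, and Siglech, a defining marker of these, ranged from 9.85 to 31.6 in untreated and from 12.8 to 38.8 in combination tumors (log2 fold change -0.07, adjusted p = 0.869). Of the 6 plasmacytoid dendritic cell genes tested, Pacsin1 and Tcf4 rose (0.61, adjusted p = 0.0362 and 0.23, adjusted p = 0.0209), against 15.7% of all genes. Without tumors 7 and 8, 0 of the 6 rose, against 14.3%. The summed list was 1316 to 2156 in untreated and 1643 to 2909 in combination tumors. The part of these cells in the Spib result was not tested.

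**Figure D2:**
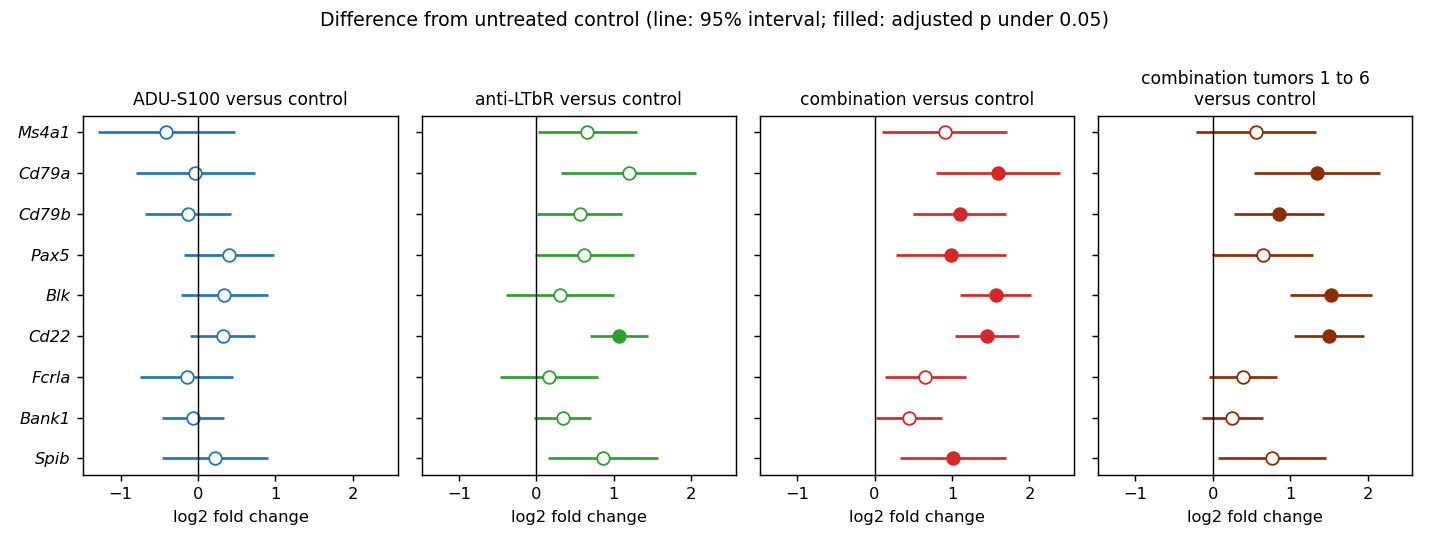
Log2 fold change of each of the 9 genes against untreated control (horizontal axes) for ADU-S100, anti-LTbR, the combination, and combination tumors 1 to 6 alone. Circles are estimates, lines are 95% intervals, and filled circles passed at an adjusted p under 0.05. The filled circles number 0, 1, 6 and 4 from left to right, and the 9 combination estimates all lie above 0.

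Anti-LTbR alone raised 1 of the 9 genes. Against untreated control Cd22 increased 2.09-fold (log2 fold change 1.06 ± 0.18, SE, adjusted p = 0.00217) with no overlap between the groups. Of all genes tested, 4.56% rose by the adjusted p, and 0.588% had every anti-LTbR tumor above every untreated tumor. The estimates of the other 8 genes lay above 0, with a median over the 9 of 0.62 against 0.01 for all genes, and none of the 8 passed by limma. Cd79a had the largest of them (1.19 ± 0.41, adjusted p = 0.0746), with 27.9, 95.4 and 255 as its lowest, median and highest values and 3 of 8 tumors above every untreated tumor. Spib followed at 0.86 ± 0.34 (adjusted p = 0.111). DESeq2 on recovered reads passed both of these genes and Cd22, 3 in all, whereas edgeR passed Cd22 alone. Leaving out anti-LTbR tumor 8, the lowest of its group for all 9 genes, also gave 3 calls, with Cd79a at 1.41 (adjusted p = 0.0328) and Spib at 1.08 (adjusted p = 0.0305), and leaving out control tumor 3 gave 2, with Cd79a at 1.39 (adjusted p = 0.0352). Without anti-LTbR tumor 6, the highest of its group for 8 of the genes, Cd79a had 0.96 (adjusted p = 0.136) and Spib 0.72 (adjusted p = 0.199). Blk had 0.31 ± 0.33 (95% interval -0.39 to 1.01, adjusted p = 0.584), with 4 of 8 anti-LTbR tumors above every untreated tumor, and 0.56 without tumor 8 (adjusted p = 0.174).

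ADU-S100 alone left no detectable change in the 9 genes. By limma 0 of the 9 passed, 0 had an unadjusted p under 0.05, and edgeR and DESeq2 passed 0. Of all 23486 genes limma called 0% in either direction, with 2933 at an unadjusted p under 0.05, edgeR (TMM) called 1 and DESeq2 called 21 that rose and 33 that fell. The estimates ran from -0.41 ± 0.42 for Ms4a1 to 0.40 ± 0.28 for Pax5, 4 above 0 and 5 below. Ms4a1 ranged from 3.95 to 30.2 normalized counts with ADU-S100 and Cd79a from 10.9 to 58.9, both within or below the untreated range. The 95% intervals extended upward to between 0.33 for Bank1 and 0.98 for Pax5, with 0.91 for Blk, 0.90 for Spib, 0.74 for Cd22 and 0.73 for Cd79a, so that increases up to these sizes lay inside the intervals that 8 tumors per group allowed.

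Against each single agent, the combination was higher for a part of the genes. Relative to anti-LTbR 2 of the 9 rose, Blk (log2 fold change 1.26 ± 0.29, SE, adjusted p = 0.0077) and Cd22 (0.39 ± 0.13, adjusted p = 0.0487), against 8.2% of all genes, and the same 2 were called without tumors 7 and 8, against 7.53%. For Blk every combination tumor lay above every anti-LTbR tumor, as was the case for 1.06% of all genes. The Cd22 call was at the limit, since leaving out any of 11 of the 16 tumors ended it, with adjusted p from 0.0613 to 0.0974. For Cd79a the difference from anti-LTbR was 0.40 (95% interval -0.47 to 1.27) and for Ms4a1 0.25 (-0.42 to 0.91), and without tumors 7 and 8 these were 0.15 and -0.10.

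Relative to ADU-S100, 5 of the 9 rose, against 16.1% of all genes. They were Cd79a (1.63 ± 0.35, adjusted p = 0.0017), Cd22 (1.13 ± 0.16, adjusted p = 5.11e-05), Blk (1.22 ± 0.21, adjusted p = 0.000282), Cd79b (1.23 ± 0.29, adjusted p = 0.003) and Ms4a1 (1.31 ± 0.43, adjusted p = 0.0251). Ms4a1 lost its call without tumors 7 and 8 (0.96, adjusted p = 0.101), which left 4 of the 9 against 15.1% of all genes, and also on leaving out ADU-S100 tumor 2 or combination tumor 7 alone (adjusted p = 0.053 and 0.0507). Leaving out ADU-S100 tumor 5, the highest of its group for 6 of the genes, gave 8 calls. Between the single agents, Cd22 was higher with anti-LTbR than with ADU-S100 (0.74 ± 0.13, adjusted p = 0.00848), 1 of the 9 against 1.95% of all genes, and 7 of 8 anti-LTbR tumors lay above every ADU-S100 tumor. The comparisons with control, or with the combination, share those tumors and are not independent of each other.

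Whether both agents together differed from the sum of their separate effects was tested as an interaction over the 32 tumors. By limma 0 of the 9 genes passed, against 12.9% of all genes in either direction, and edgeR and DESeq2 passed 0. Of all 23486 genes 6296 had an unadjusted p under 0.05 by limma, and of the 9 genes 1 did. That gene was Blk, with an interaction of 0.91 ± 0.40 on the log2 scale (95% interval 0.10 to 1.72, unadjusted p = 0.0281 by limma, adjusted p = 0.129; 0.88 without combination tumors 7 and 8, adjusted p = 0.180). Cd22 had 0.07 ± 0.24 (-0.43 to 0.56), so that its combination value lay close to the sum of its values with each agent. Cd79a had 0.44 (-0.72 to 1.60), an interval too wide to tell a sum from a larger or smaller effect.

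The 9 genes did not vary together from tumor to tumor to the same degree. Deviations from the group mean, over the 32 tumors, correlated most strongly between Cd79a and Cd79b (Pearson's r = 0.87), Ms4a1 and Cd79b (0.82) and Ms4a1 and Spib (0.80), and least between Blk and Cd22 (-0.09). The median correlation with the other 8 genes was 0.71 for Spib, 0.69 for Cd79b, 0.65 for Cd79a and for Fcrla, 0.61 for Ms4a1, 0.60 for Pax5 and 0.55 for Bank1. It was lowest for Cd22 (0.36) and Blk (0.33), the pair that separated the groups most sharply. Without combination tumors 7 and 8 these 2 medians were 0.42 and 0.36 and that of Spib was 0.67. All points share their library, depth and scaling, and the values are a description.

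**Figure D3:**
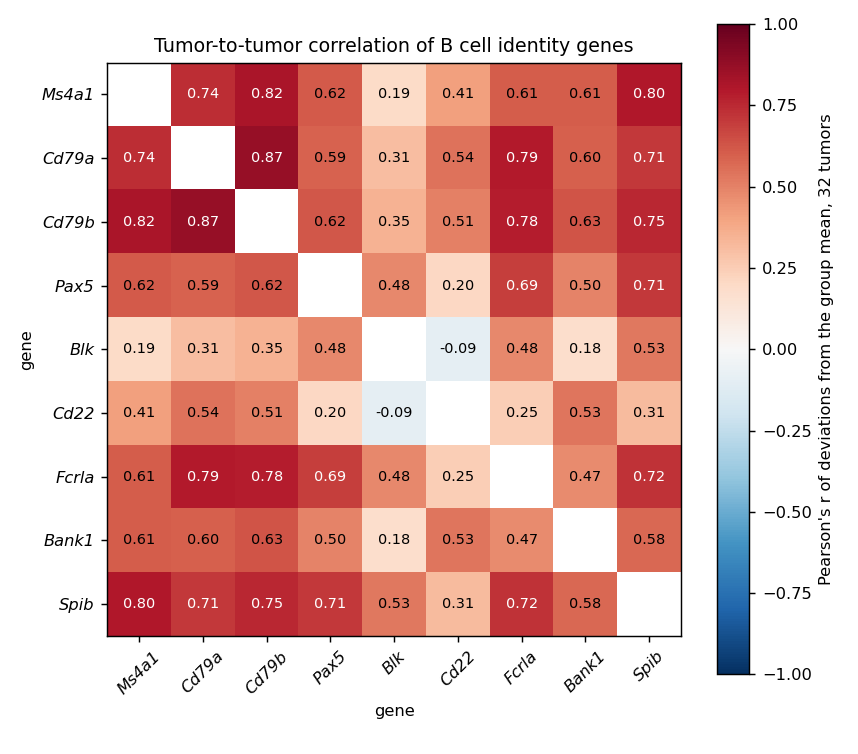
Pearson's r between each pair of the 9 genes (both axes) over the 32 tumors, computed on deviations of log2(normalized count + 1) from the mean of the treatment group. The color scale runs from -1 to 1. Values are highest between Cd79a and Cd79b (0.87) and lowest between Blk and Cd22 (-0.09).

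The genes whose tumor-to-tumor pattern was most like the average of the 9, among 18734 other genes with a mean of at least 5 normalized counts, included Pou2af1 (r = 0.78), Tent5c (0.77), Cxcl14 (0.76) and Ighd (0.76), the highest 4. Pou2af1 encodes a B cell coactivator of octamer-binding factors, Tent5c a poly(A) polymerase abundant in plasma cells, Ighd the constant region of IgD, and Cxcl14 a chemokine. By Spearman correlation they ranked 4 (Pou2af1), 11 (Tent5c), 15 (Cxcl14) and 56 (Ighd). With the group differences kept in, the ranks in the same order were 2, 1, 420 and 17, and without combination tumors 7 and 8 they were 1, 5, 4 and 7.

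Genes around the antigen receptor were mostly higher in combination tumors, where 15.7% of all genes rose and 16.8% fell (14.3% and 15.1% without tumors 7 and 8). Of 12 antigen receptor signaling genes 10 rose and 0 fell (9 and 0 without tumors 7 and 8), with a median log2 fold change of 0.53, and the smallest p-values belonged to the adaptor Blnk (0.97 ± 0.14, adjusted p = 7.26e-05) and to the kinase subunit Pik3cd (0.75 ± 0.12, adjusted p = 0.000146). Many of these enzymes are used by other leukocytes too. Of 9 inhibitory receptors and phosphatases 5 rose and 0 fell (median 0.44), among them Cd5, a receptor shared with T cells (0.83, adjusted p = 0.00115), and the phosphatase gene Ptpn6 (0.44, adjusted p = 0.00119). Without tumors 7 and 8, 5 rose and 1 fell. With anti-LTbR alone 2 of the 12 signaling genes and 0 of the 9 inhibitory genes rose, against 4.56% of all genes.

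The transcription factors and the stages of the B lineage moved unevenly, beside the 15.7% of all genes that rose and the 16.8% that fell. Of 13 B lineage transcription factors 6 rose and 1 fell in combination tumors, with and without tumors 7 and 8 (median 0.41), with Tcf3, an E-box factor of many cell types, lower by a log2 fold change of -0.36 (adjusted p = 0.000304) and Ebf1 higher by 0.76 (adjusted p = 0.000314). Of 10 mature follicular B cell genes 5 rose (median 0.87), among them the tetraspanin gene Cd37 (1.10, adjusted p = 2.83e-05), and 3 rose without tumors 7 and 8. Of 8 plasma cell genes 6 rose and 1 fell, also without tumors 7 and 8 (median 1.68), with Irf4 higher by 1.70 (adjusted p = 0.00014) and Sdc1, which epithelial cells also express, lower by -0.42 (adjusted p = 0.000726). Of 6 germinal center genes tested 2 rose, also without tumors 7 and 8, S1pr2 (0.34, adjusted p = 0.000439) and Mef2b (1.58, adjusted p = 0.00932), and Rgs13 was below the filter. Of 5 B cell precursor genes tested Vpreb3 rose (1.80, adjusted p = 0.015), Rag1 had 1.54 (adjusted p = 0.0671), 0 of the 5 were called without tumors 7 and 8, and Rag2 was below the filter.

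**Figure D4:**
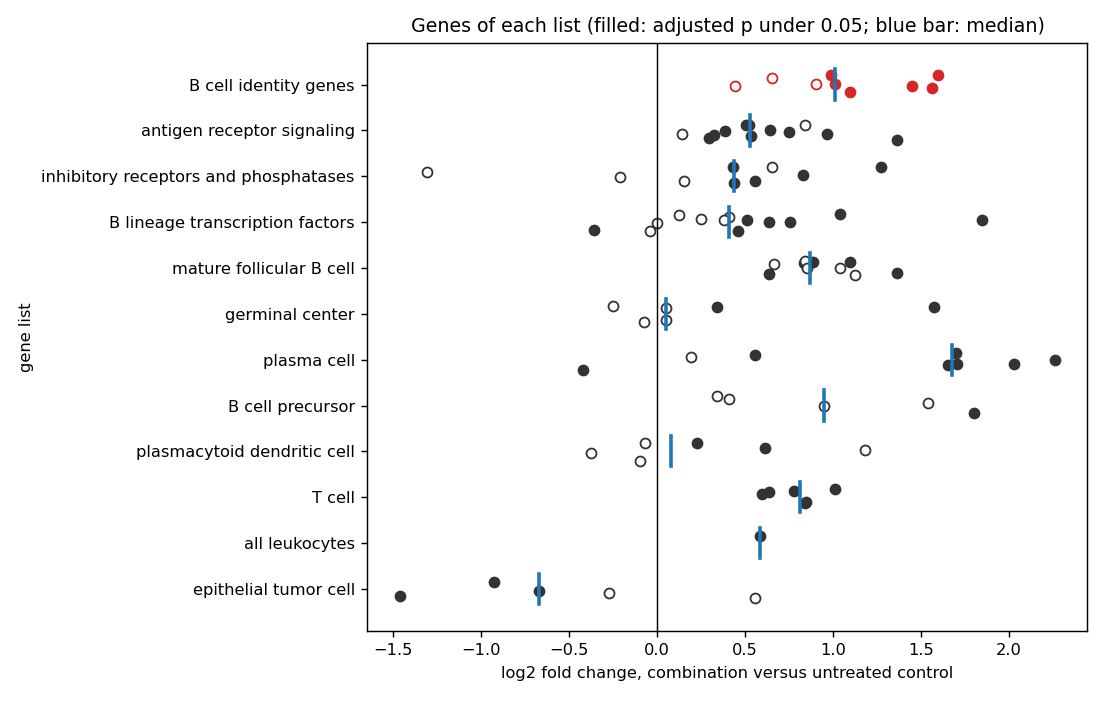
Log2 fold change between combination and untreated tumors (horizontal axis) for the genes of each list (vertical axis). Each circle is a gene, filled at an adjusted p under 0.05, and blue bars are list medians. The B cell identity genes have a median of 1.01, the plasma cell list the highest median (1.68) and the epithelial list the lowest (-0.67).

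Other cell types moved in the same tumors, again beside 15.7% of all genes higher and 16.8% lower. All 6 T cell genes rose in combination tumors, with and without tumors 7 and 8 (median 0.81, with Cd247 at 0.85, adjusted p = 0.000226, and Cd3e at 1.01, adjusted p = 0.000754), and their summed level was 519 to 1205 in untreated and 951 to 1615 in combination tumors. Ptprc rose by 0.59 ± 0.09 (adjusted p = 0.000149). Of 5 epithelial genes 3 fell, also without tumors 7 and 8, with Krt18 at -1.46 (adjusted p = 3.22e-05) and Krt8 at -0.92 (adjusted p = 0.000134), while Epcam (0.56, adjusted p = 0.341) and Cdh1 (-0.27, adjusted p = 0.648) did not pass. The summed list, to which Krt8 and Krt18 gave most counts, was 15947 to 28939 in untreated and 6829 to 14654 in combination tumors, without overlap. Of the 6 plasmacytoid dendritic cell genes 2 rose, and 0 without tumors 7 and 8. The part of these cell types in the results for the 9 genes was not tested.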

How the data were processed

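Per the labels and the methods of the study, RNA of individual tumors was made into poly(A)-selected, stranded libraries. The submitters' processing notes name cutadapt 1.9, FastQC, HISAT2, StringTie, STAR, Partek, DESeq2, edgeR and build mm39 without roles. The deposited table of 32 libraries holds signal, normalized counts per gene as scaled by the authors. Its values are not all whole reads over 1 factor per library. In control tumor 1, Ms4a1 had 9.01786 for 9 recovered reads and Cd79a 25.6215 for 26. A second deposited table of 52 libraries, also of normalized counts but scaled differently, gave whole reads (100% of low values within 0.1 of a whole number). In 9 libraries the step is within rounding of 1 and whole reads cannot be told from rounding. The reads of all libraries compared served the edgeR and DESeq2 alternatives. A deposited gene set enrichment table holds the authors' own comparisons (scores, p-values and FDR) and was not used. The 20 libraries of a second experiment entered no test, since the treatment given in the labels of 15 contradicts their description.

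Values were tested as log2(value + 1) with limma 3.58.1 (trend, two-sided), using the 16 tumors of a comparison (all 32 for the interaction), with Benjamini-Hochberg adjustment over 23486 genes of mean at least 1. Fold changes are on that scale and understate low genes. A gene was called at an adjusted p under 0.05. Other tools were R 4.3.3, edgeR 4.0.16, DESeq2 1.42.0, Python 3.11.15 and scipy 1.17.1, and the tests were checked on simulated data. Levels per kilobase used GENCODE exon lengths, since the length column of the table is the genomic span. Named genes were the 9 genes, the 2 of each list with the smallest p in combination against control, genes below the filter, and the 5 most alike in pattern, except for a gene that is not reported here. Siglech, Epcam, Cdh1 and the erythroid, granulocyte and γδ T cell lists were named after their values were seen. Members and lists were chosen with earlier results of these data known. Whether each tumor came from its own mouse is not given in the sources used here, and p-values measure only the spread between these tumors. The study's legend describes its bulk RNA-seq both as a single experiment and as independent experiments combined. The library labels used here mark no split among the 32 tumors. Alternatives were other filters, pseudocounts, tests, scalings, a replicate block, deeper libraries, leaving out each tumor, and leaving out combination tumors 7 and 8.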

Additional observations from a re-analysis of the deposited data

Results flagged for a closer look

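In 6 of the 36 sets of 8 tumors (9 genes in 4 groups), the highest tumor stood farther from the next than Dixon's 95% limit for 8 values, which chance exceeds in about 1 of 20 independent sets. The sets are not independent, since the 9 genes were measured in the same tumors and vary together, so the number of sets cannot be read against that rate. They were combination tumor 7 for Ms4a1 (91.5 normalized counts), Fcrla (72.2) and Bank1 (68.4), anti-LTbR tumor 6 for Cd79a (255) and Pax5 (49.0), and ADU-S100 tumor 5 for Bank1 (46.8).

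The 20 libraries of the second experiment, which entered no test, held these transcripts too, in CPM of the recovered reads, and from 6 (Pax5) to 17 (Bank1) of the 20 lay above every untreated tumor of the main experiment, with 8 for Cd79a and 9 for Ms4a1. The median of the 20 lay below the highest untreated tumor for Ms4a1, Cd79a, Pax5, Blk and Fcrla. The highest values were 18.5 for Ms4a1, 67.7 for Cd79a, 36.7 for Cd79b, 8.98 for Pax5, 6.26 for Blk, 27.9 for Cd22, 9.51 for Fcrla, 11.1 for Bank1 and 22.4 for Spib. The experiments were run separately and the difference was not tested. No share over all genes is given beside the counts of libraries above every untreated tumor. Those counts therefore cannot be read as a result about the 9 genes.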

How the results depend on the processing

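Over the 9 genes and all comparisons, 1506 of 1629 alternative values kept their direction and side of the threshold, 55 passed it newly, 34 lost it and 34 changed sign. For combination against control the number of genes called was 6 (7 with edgeR, 8 with DESeq2, 9 by the exact permutation test, unadjusted, and 4 to 8 on leaving out 1 tumor). Combination against ADU-S100 gave 5 (7 with edgeR and DESeq2, 8 by the exact permutation test, unadjusted, and 4 to 8 on leaving out 1 tumor) and against anti-LTbR gave 2 (1 with the 2-fold limit, without a filter, in 1 fit of all 32 tumors and in libraries of at least 14000000 reads, and 1 to 2 on leaving out 1 tumor). Anti-LTbR against control gave 1 (3 with DESeq2, 2 in 1 fit of all 32 tumors, 3 in libraries of at least 14000000 reads, 3 by the exact permutation test, unadjusted, and 1 to 3 on leaving out 1 tumor). Against ADU-S100 anti-LTbR also gave 1 (0 with the 2-fold limit, 2 with DESeq2, 4 by the exact permutation test, unadjusted, and 1 to 2 on leaving out 1 tumor). Of 23486 genes, limma gave an unadjusted p under 0.05 to 9937 for combination against control and 10094 against ADU-S100. For anti-LTbR these numbers were 6436 against control and 4591 against ADU-S100. No share over all genes is given for the permutation test, so its counts cannot be read as a result about the 9 genes. The replicate block changed none of the counts of genes called, with 6 for combination against control. The numbers of the tumors were not taken as pairs, since in no comparison were all 8 same-numbered correlations of deviations over 0.1 (means from -0.05 to 0.12). The most were 5 of 8, for combination against anti-LTbR, where 7 of 16 tumors correlated best with their own number. Causes of these shifts were not tested.

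Values that changed sign were all of genes that did not pass. In libraries of at least 14000000 reads they were Cd79a (0.075) and Bank1 (0.0198) for ADU-S100 against control, Spib for combination against anti-LTbR (-0.0239), Blk for anti-LTbR against ADU-S100 (0.32) and the interaction of Cd22 (-0.20). Without combination tumors 7 and 8, chosen after seeing the data, they were Ms4a1 (-0.102), Bank1 (-0.0945) and Spib (-0.0969) for combination against anti-LTbR and the interaction of Bank1 (-0.0291). On recovered reads, Blk for anti-LTbR against ADU-S100 was 0.059 (TMM), 0.0581 (RLE), 0.0749 (library totals) and 0.0611 (DESeq2), and the interaction of Pax5 0.0963, 0.0943, 0.0806 and 0.0927. On leaving out 1 tumor, ADU-S100 against control ran from -0.19 to 0.19 for Cd79a, -0.25 to 0.0494 for Cd79b, -0.25 to 0.0794 for Fcrla and -0.19 to 0.00465 for Bank1. Fcrla ran from -0.0179 to 0.35 for anti-LTbR against control, Blk from -0.17 to 0.22 for anti-LTbR against ADU-S100, and Bank1 from -0.0254 to 0.18 and Spib from -0.0719 to 0.29 for combination against anti-LTbR. Leaving out single tumors for the interaction was not run. Low counts, from 3.34 normalized counts of Blk and 3.95 of Ms4a1 in the lowest tumors, limit the precision of both.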

Other observations

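In the second experiment, whose 15 unassigned and 5 combination libraries entered no test, the 9 genes spread over a wide range in CPM of the recovered reads. Cd79a ran from 0.591 to 67.7 with a median of 4.12, Cd79b from 1.33 to 36.7 with a median of 7.17, Ms4a1 from 0.215 to 18.5 with a median of 1.43 and Cd22 from 5.10 to 27.9 with a median of 10.6. Library C2 was highest for 6 of the 9 genes (Ms4a1, Pax5, Cd22, Fcrla, Bank1 and Spib), C3 for Cd79a and Cd79b, and B1 for Blk.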
